A study of Oryza sativa with 200 samples.

Results

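Of 37849 gene identifiers counted in rice leaves, 223 behaved as on/off genes over 100 inbred lines, and the 39 of them on chromosomes 9, 10 and 12 are described here. A gene was chosen when, in each of 2 years, at least 10 lines had under 0.2 CPM (counts per 1000000 counts of the library), at least 10 lines had 2 CPM or more, and at most 10 lines lay between these limits. A line under 0.2 CPM is called off and a line at 2 CPM or more is called on. Os12g0491800, which also met these limits, is left out. The rule therefore used how many lines were on and off in each year, and those numbers and levels are given as a description with no test. It did not use which lines were on, so the match of the lines between years and between genes was tested.

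The lines came from JAM2, a multi-parent (MAGIC) rice population derived from 4 varieties, Akidawara, Iwaidawara, Tachiharuka and Toyomeki. In 2023 the lines were in generation F6 and were sampled on 29 June, and in 2022 they were in generation F5 and were sampled on 1 July, in each case 6 weeks after transplanting and between 9:00 and 11:00. Each line stood in 1 unreplicated plot of 33 plants given 56 kg of nitrogen per ha, and all 200 libraries are labelled chemical fertilizer. For sequencing, 1 leaf per line and year was turned into a stranded poly(A) library. Year, generation, plant and plot soil therefore cannot be told apart, and no line has a second library within a year.

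In an inbred line of a multi-parent population each stretch of a chromosome descends from a single parent, and recombination during intercrossing and selfing sets where one parental stretch ends and the next begins. Varieties of rice differ in which genes they carry and in the promoters of shared genes, so a transcript can be present with some parental haplotypes and missing with others. Genes that lie close together then tend to be on or off in the same lines, while genes on different chromosomes assort independently. Heterozygous stretches shrink with each selfing generation, and a heterozygous plant carries both parental copies. The identifiers of the 39 genes carry no gene name in the sources used here, so each is given by its locus number, which follows the order along the chromosome and is not a distance in bases.

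Library totals were 3729294 to 16881699 counts in 2023 with a median of 11272411, and 3254834 to 37774023 counts in 2022 with a median of 7768777. An off call allowed 0 counts in the shallowest library of each year, 3 counts in the deepest library of 2023 and 7 counts in the deepest of 2022. The upper limit that 3 counts set was 0.178 to 0.804 CPM in 2023 and 0.0794 to 0.922 CPM in 2022, so in shallow libraries an off call does not exclude a low level. The leaf marker RBCS (Os12g0274700), the Rubisco small subunit, had a median level of 10666 CPM over the 2023 libraries and of 6565 CPM over those of 2022, and was present in every library. The root silicon transporter LSI1 (Os02g0745100) had a median of 19.5 CPM in 2023 and 16.7 CPM in 2022. The floral gene OsMADS1 (Os03g0215400) had a median of 1.49 CPM in 2023 and 1.34 CPM in 2022, with 0 counts in 8 and 14 libraries of these years. In its highest library OsMADS1 reached 31.2 CPM in 2023 and 28.9 CPM in 2022.

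Chromosome 12 held most of the set. It gave 25 of the 39 genes, chromosome 10 gave 8 and chromosome 9 gave 6. With the excluded gene counted, 1.20% of the 2174 identifiers of chromosome 12 were on/off, against 0.379% of 2112 on chromosome 10 and 0.284% of 2110 on chromosome 9. The highest share of any chromosome was 2.02% on chromosome 11. Along chromosome 12 the genes ran from Os12g0101000, among the lowest locus numbers, to Os12g0632401.

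The share of lines that expressed a gene varied widely. The number of lines on was 10 to 77 with a median of 47 in 2023, and 11 to 83 with a median of 44 in 2022. Fewer than 50 lines were on for 24 of the 39 genes in 2023. The rarest transcripts in 2023 were those of Os12g0101000, Os12g0103500, Os12g0103580 and Os12g0118400 at the start of chromosome 12, on in 10, 11, 12 and 12 lines in 2023 and in 11, 12, 13 and 14 lines in 2022. The most widespread were Os12g0467300, on in 77 lines in 2023 and 77 in 2022, Os12g0450500, on in 74 and 76 lines, and Os10g0142900, on in 74 and 83 lines in the same order of years. The number on was equal in both years for 13 genes, lower in 2023 for 19 and higher in 2023 for 7. A line expressed 6 to 29 of the 39 genes in 2023, with a median of 16.5, and 6 to 30 in 2022, with a median of 17.

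**Figure D1:**
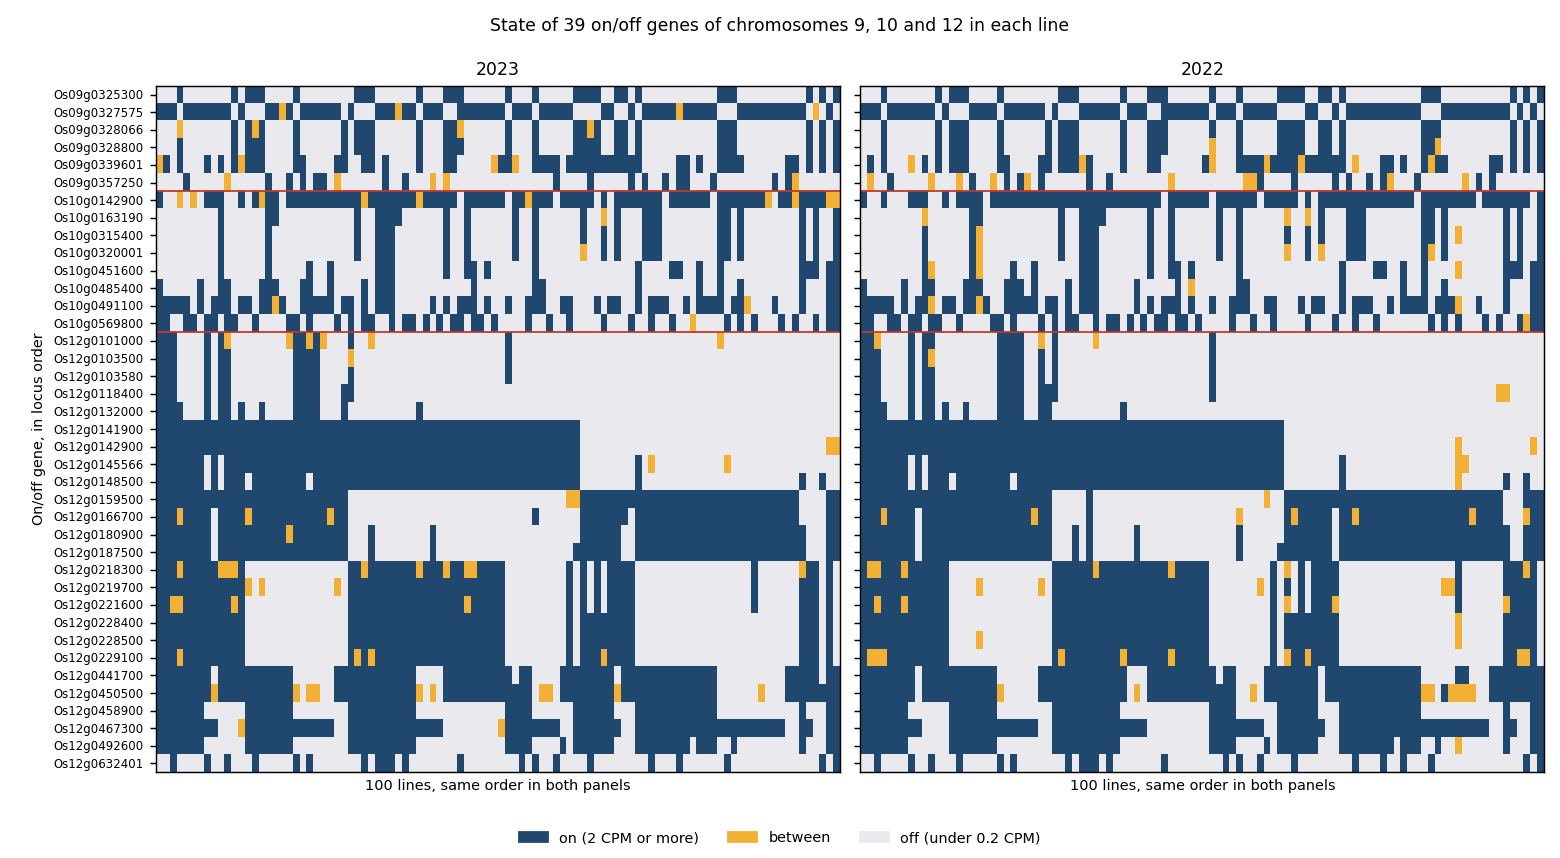
State of the 39 genes (vertical axis, in locus order, with chromosomes 9, 10 and 12 parted by red lines) in each of 100 lines (horizontal axis, same order in both panels) in 2023 (left) and 2022 (right). Blue is on, grey is off and yellow lies between the limits. Blocks of neighbouring genes share their lines, and the pattern of the left panel recurs in the right panel.

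Off lines were almost always empty. Leaf RNA was measured in bulk, so fewer expressing cells and less RNA per cell cannot be told apart. Of 2155 off calls in 2023, 2057 (95.5%) rested on 0 counts, as did 2031 of 2110 (96.3%) in 2022. Os12g0458900, for example, had 0 counts in all 51 off lines of both years. The exception was Os12g0450500, with 0 counts in 1 of 16 off lines in 2023 and in 9 of 15 in 2022. Its low lines also ran past the off limit. Between the limits it had 10 lines at 0.205 to 0.860 CPM in 2023 and 9 lines at 0.266 to 1.78 CPM in 2022. Calls between the limits made up 82 of 3900 in 2023 and 95 of 3900 in 2022.

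On lines ranged from levels just past the limit to well above it. The median CPM of the on lines was 2.86 to 47.2 over the 39 genes in 2023 and 3.19 to 50.8 in 2022. CPM is not divided by gene length, so levels are set side by side between years and not between genes. Os12g0132000 had 24.1 CPM in its lowest on line, a median of 47.2 and 65.4 in its highest in 2023, and 11.0, 28.1 and 41.5 CPM in 2022. Os12g0118400 had 22.6, 46.6 and 60.8 CPM (lowest, median and highest on line) in 2023 and 24.9, 50.8 and 66.2 CPM in 2022. Os12g0145566 had 17.6, 37.2 and 48.2 CPM in 2023 and 20.1, 41.5 and 60.03 CPM in 2022. In these 3 genes the lowest on line stood well above the limit of 2 CPM in both years. The rule itself keeps on lines apart from off lines. Os12g0118400 had 2 lines between the limits in 2022, and Os12g0145566 had 2 in each year.

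Os12g0103580 had 19.4, 35.5 and 45.3 CPM over its on lines in 2023 and 17.0, 37.8 and 54.1 CPM in 2022. Os12g0450500 had 17.6, 32.8 and 44.0 CPM in 2023 and 14.3, 31.9 and 45.5 CPM in 2022. Os10g0569800 spread the most widely, at 8.55, 28.5 and 73.4 CPM in 2023 and 6.72, 22.6 and 276 CPM in 2022, where 1 line stood far above the others. At the other end, the 5 genes with the lowest medians in 2023 had lowest on lines of 2.01 to 2.31 CPM in 2023 and 2.05 to 2.47 CPM in 2022, close to the limit of 2 CPM. They were Os12g0101000 (median 2.86 CPM in 2023 and 3.68 in 2022), Os09g0328066 (3.16 and 3.97), Os12g0229100 (3.22 and 3.37), Os10g0163190 (3.68 and 3.19) and Os09g0327575 (3.79 and 5.54), with the 2023 median first for each.

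**Figure D2:**
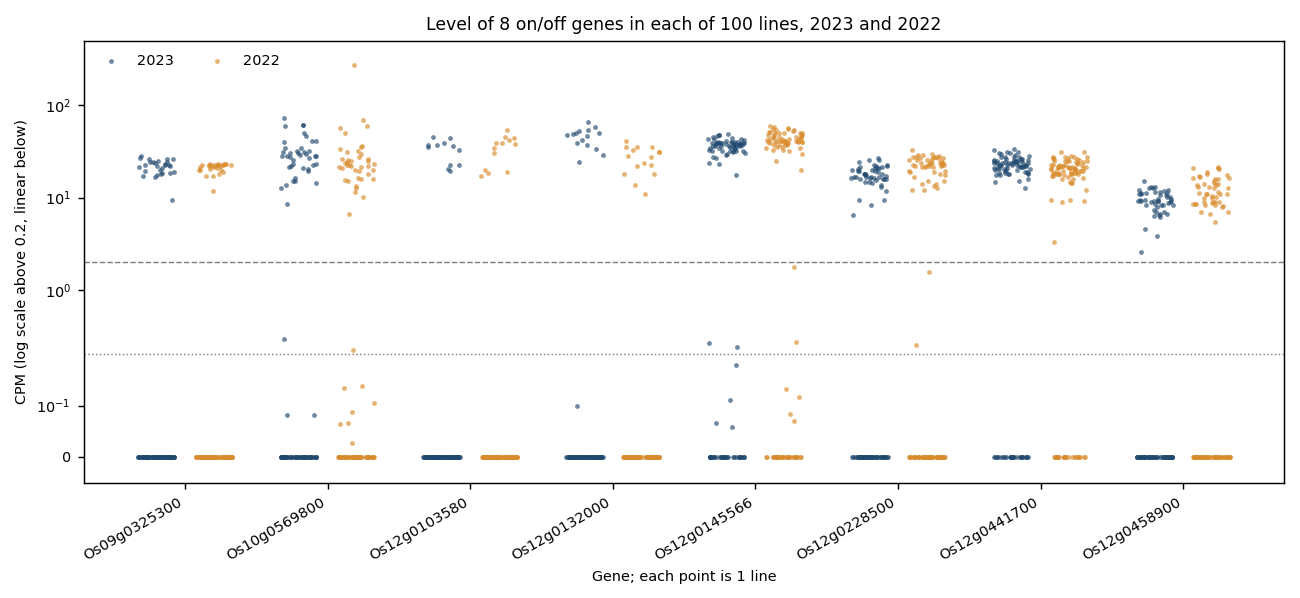
CPM of 8 of the genes (horizontal axis) in each of 100 lines, with 2023 in blue at the left and 2022 in orange at the right of each gene. The vertical axis is logarithmic above 0.2 CPM and linear below, and the dashed and dotted lines mark 2 and 0.2 CPM. Off lines gather at 0 counts, and the rule itself sets them apart from the on lines. Os12g0132000 lies higher in 2023 and Os10g0569800 has 1 line at 276 CPM in 2022.

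The lines that expressed a gene were nearly the same lines in both years. All 39 genes were called concordant by Fisher's exact test on the lines on or off in each year, at Benjamini-Hochberg (BH) adjusted p-values over 2003 genes of 5.17e-27 to 2.29e-11. Over all 2003 genes, most of which have few lines on, 25.8% were called. All 184 other on/off genes were called too, with the same state in 95.6% to 100% of lines. Full concordance is therefore not particular to the 39 genes. In the 39 genes the same state was found in 96.0% to 100% of the lines called in both years, with a median of 100%. No line changed state in 21 genes, 1 line changed in 12 genes and 2 or more lines in 6 genes. Os09g0325300, Os12g0141900 and Os12g0458900 had every one of 100 lines called in both years and none that differed, which leaves a 95% exact (Clopper-Pearson) interval that starts at 96.4% for the share of lines with the same state.

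The 3 least concordant genes lay on chromosome 12, with 4 lines that differed in each. Os12g0180900 kept its state in 95 of 99 lines (96.0%), Os12g0187500 in 96 of 100 (96.0%) and Os12g0441700 in 96 of 100 (96.0%). Os12g0159500 kept it in 95 of 97 lines (97.94%) and Os12g0118400 in 96 of 98 (97.96%), and Os10g0485400 on chromosome 10 kept it in 97 of 99 (97.98%). In all, 30 of 3740 line calls of the 39 genes differed between years, against 158 of 17775 in the other 184 on/off genes. The state of the 39 genes alone was enough to match most lines with themselves, since the 2022 library most like a line's 2023 library was its own in 96 of 100 lines, 5 of them tied with another line.

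All 30 line calls that differed were off in 2023 and on in 2022, and 0 went the other way. Among the other on/off genes 157 were off in 2023 and on in 2022, and 1 was on in 2023 and off in 2022. The 30 calls fell in 18 genes and 15 lines. J2_209 held 8 of them, J2_262 and J2_274 held 4 each, and J2_212 and J2_280 held 2 each. Within a line the changed genes were neighbours. In J2_274 they were Os12g0103500, Os12g0103580, Os12g0118400 and Os12g0132000, in J2_262 they were Os12g0159500, Os12g0166700, Os12g0180900 and Os12g0187500, and in J2_212 and J2_280 they were Os12g0180900 and Os12g0187500.

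In 2022 the changed lines expressed these genes at a reduced level. Each of the 30 lay below the median of the lines that were on in both years, at 0.160 to 0.684 of that median with a median ratio of 0.509. In 2023 they had 0 counts in 28 calls and 1 count in the other 2. Os12g0103580 had 0 CPM in J2_274 in 2023 and 19.7 CPM in 2022, where the lines on in both years had a median of 38.3 CPM. Os12g0118400 had 0 CPM in J2_274 in 2023 and 31.3 CPM in 2022, against a median of 54.3 CPM. Os12g0228500 had 0 CPM in J2_209 in 2023 and 12.1 CPM in 2022, against a median of 23.2 CPM. Most of the 30 values still lay within the range of the lines on in both years, as the plot of 2022 levels shows.

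**Figure D3:**
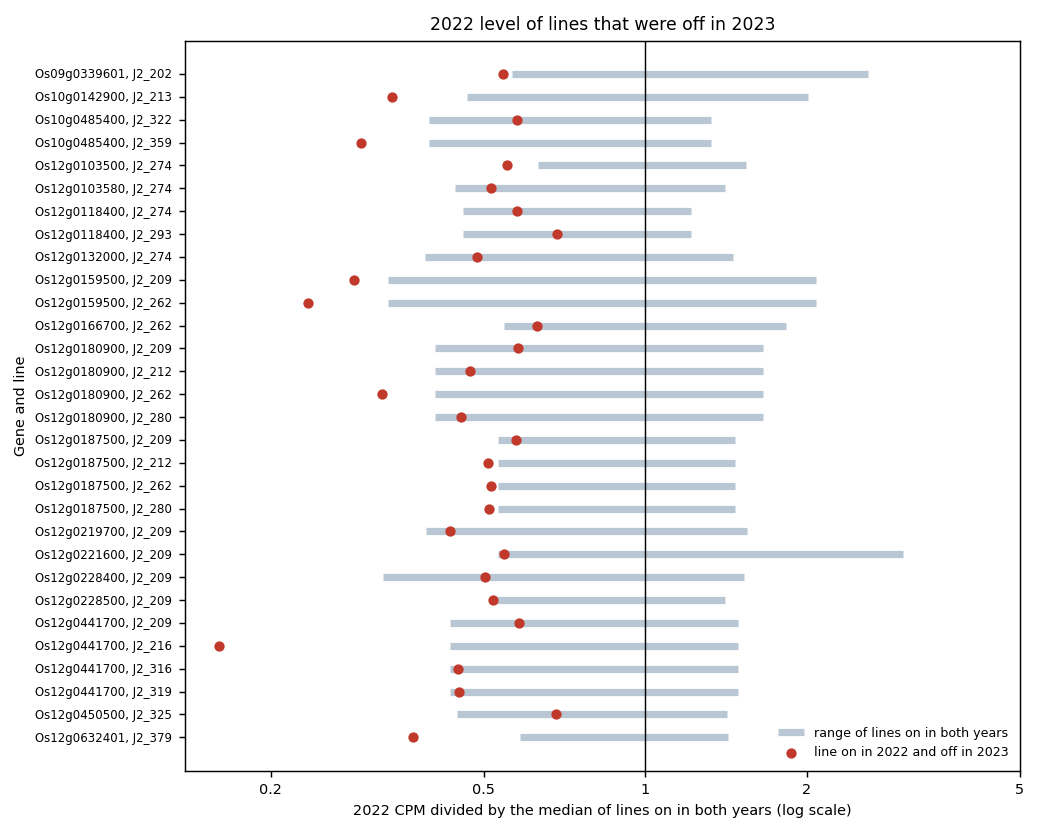
CPM in 2022 of the 30 line calls that were off in 2023 and on in 2022 (red points), divided by the median of the lines on in both years for the same gene (horizontal axis, logarithmic). Grey bars span the lines on in both years. All 30 points lie left of 1, between 0.160 and 0.684.

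The changes were also counted by the depth of the 2022 libraries, after thinning and with a single limit. Of the 15 lines with a change, 8 were among the 30 lines with the deepest 2022 libraries. Within those 30 lines 23 calls differed, and within the other 70 lines 7 differed, all off in 2023 and on in 2022. Of the 23 calls, J2_209 gave 8, and J2_262 and J2_274 gave 4 each, in neighbouring genes. With every library thinned to 3254834 counts, 31 calls were off in 2023 and on in 2022 and 0 the reverse. With a single limit at 1 CPM, 46 were off in 2023 and on in 2022 and 7 the reverse. The part of generation, year and sampled plant in these changes was not tested, and in this design they cannot be told apart.

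J2_209 showed an unbroken stretch of intermediate level. From Os12g0159500 to Os12g0441700 all 11 genes were off in 2023 and had counts in 2022, at 0.290 to 0.604 of the median of the on lines, with a median ratio of 0.508. The 8 genes that J2_209 expressed in both years stood at 0.582 to 1.48 of that median in 2022, with a median ratio of 1.18. J2_216 showed another pattern. Its 2022 library held counts of 14 genes that were off in 2023, spread over chromosomes 10 and 12. Of the 14, 10 were between the limits, 1 was on and 3 were still off, at 0.104 CPM each. The 14 genes stood at 0.0148 to 0.162 of the median of the on lines, with a median ratio of 0.0524. The lowest ratio was that of Os12g0141900, 1 of the 3 still off. J2_216 gave 10 of the 95 calls between the limits in 2022 but only 1 of the 30 changes, in Os12g0441700. Without J2_209 the count of changes was 22, without J2_216 it was 29 and without both it was 21, all off in 2023 and on in 2022, and all 39 genes remained called in each case.

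Many pairs of genes on the same chromosome shared their lines, and no pair of the set on different chromosomes was called. Of 36 pairs of neighbouring genes, 31 were called in both years by Fisher's exact test with BH adjustment over all 24753 pairs of on/off genes. The share called among neighbouring on/off genes of all chromosomes was 79.1%, so the 31 of 36 (86.1%) lie close to that background. Among all 343 pairs on the same chromosome 107 were called (31.2%), close to the 30.6% of all same-chromosome pairs of on/off genes. Among 398 pairs on different chromosomes 0 were called, beside 0.26% of all different-chromosome pairs of on/off genes. An unadjusted p under 0.05 in both years was found in 8 of the 398 (2.01%), beside 2.38% of all different-chromosome pairs. The phi coefficient, which is 1 when 2 genes are on in exactly the same lines and -1 when they are on in opposite lines, reached at most 0.286 in size between these chromosomes in 2023 and 0.289 in 2022.

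**Figure D4:**
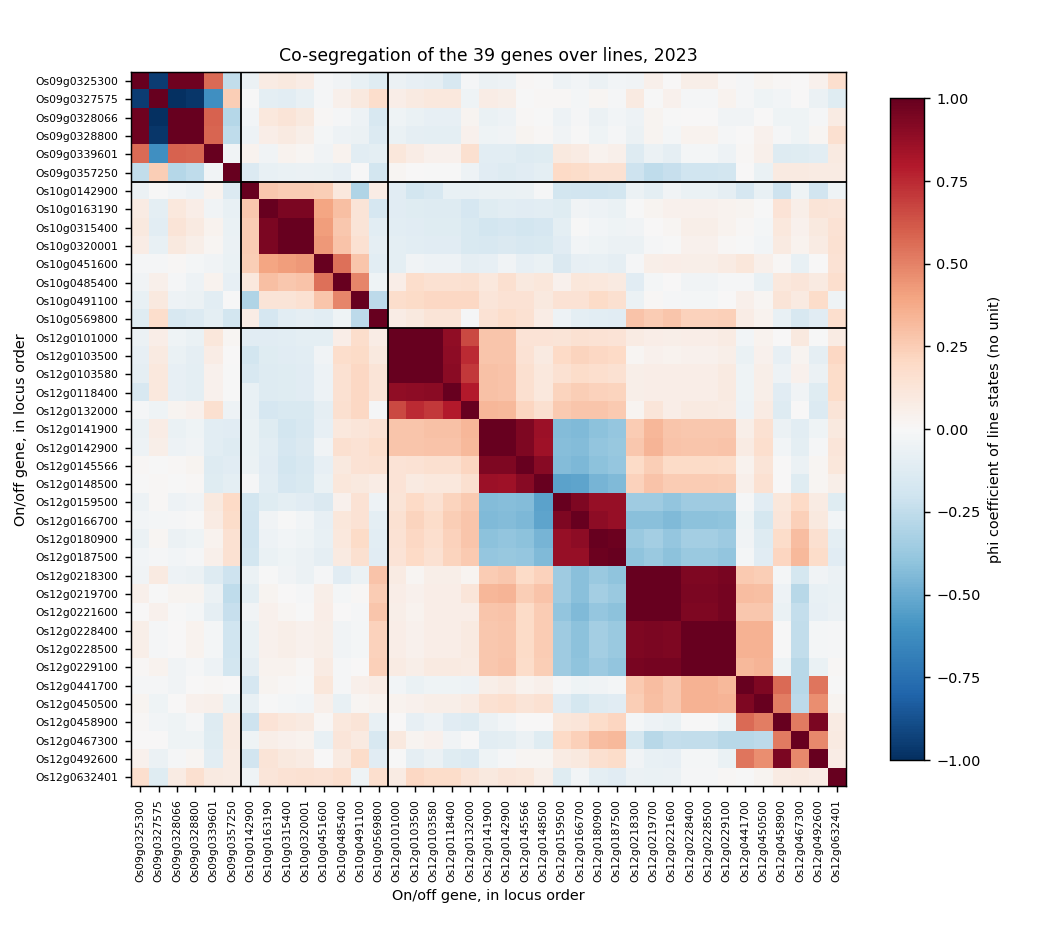
Phi coefficient (colour, from -1 to 1) of the line states of every pair of the 39 genes in 2023, with both axes in locus order and black lines between chromosomes 9, 10 and 12. Red blocks along the diagonal are genes that share their lines, blue marks genes on in opposite lines, and the fields between chromosomes stay pale at 0.286 or less.

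Neighbouring genes were joined into runs where at least 90% of the lines had the same state, or the opposite state, in both years. This gave 7 runs with 28 genes and left 11 genes on their own. Of the 36 neighbouring pairs, 19 were joined by the same state, 2 by the opposite state and 15 were not joined. In many pairs 1 of the 4 possible combinations was almost missing. In 29 of the 36 pairs at least 1 combination was found in 2 lines or fewer in each year, and 8 of these pairs were not joined. In joined pairs the 90% rule itself leaves few lines for the rarer combinations. In the 8 pairs the rarest combination was expected in 3.68 to 14.8 lines if the states were independent.

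The run on chromosome 9 combined a set of genes with a gene of opposite state. Os09g0325300, Os09g0328066 and Os09g0328800 were on in 28, 25 and 29 lines in 2023 and in 28, 29 and 27 lines in 2022. Os09g0327575, which lies between them, was on in 68 lines in 2023 and 72 in 2022. In 2023 Os09g0325300 and Os09g0327575 were both on in 1 line and both off in 1 line, while 27 lines expressed only Os09g0325300 and 67 only Os09g0327575, and in 2022 these numbers were 1, 1, 27 and 71. The phi coefficient of this pair was -0.95 in 2023 and -0.95 in 2022, and that of Os09g0328066 with Os09g0328800 was 1 in both years. Os09g0325300 had 9.32, 22.4 and 28.4 CPM (lowest, median and highest on line) in 2023 and 11.7, 22.01 and 23.3 CPM in 2022, and Os09g0328800 had 3.22, 5.62 and 8.20 CPM in 2023 and 2.20, 5.58 and 10.8 CPM in 2022. The same 2 lines departed from the run's pattern in both years. Of the 25 identifiers from Os09g0325300 to Os09g0328800, these 4 are on/off genes.

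Os09g0339601 followed this run in part and a gene of chromosome 8 in part. In 2023 it was on in 27 lines together with Os09g0328800, off in 2 lines that had Os09g0328800 on, and on in 20 lines that had Os09g0328800 off. The pair's phi was 0.58 in 2023 and 0.60 in 2022. Os09g0339601 also co-segregated with Os08g0340700 of chromosome 8, with a phi of 0.59 in 2023 and 0.63 in 2022 (Fisher's exact test, BH adjusted p 6.65e-08 in 2023 and 3.36e-08 in 2022), and was opposite to Os08g0290900 (phi -0.57 and -0.64) and Os08g0332100 (phi -0.58 and -0.64), with 2023 first. Of 7151 pairs of the 39 genes with on/off genes of another chromosome, 7 were called (0.0979%). This lies beside 0.26% of all different-chromosome pairs of on/off genes. The 3 pairs with chromosome 8 were the strongest of the 7.

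Nearly every line that expressed Os09g0339601 had at least 1 of these other genes on. In 2023 it was on in 8 of 8 lines with both Os09g0328800 and Os08g0340700 on, at 5.35 to 11.996 CPM and a median of 7.56. It was on in 18 of 19 lines with only Os08g0340700 on, at a median of 5.15 CPM, in 19 of 21 lines with only Os09g0328800 on, at a median of 3.86 CPM, and in 2 of 52 lines with neither, at a median of 0 CPM. In 2022 it was on in 8 of 8 lines with both, at 3.17 to 10.7 CPM and a median of 7.51. It was on in 17 of 19 lines with only Os08g0340700 on (median 3.72 CPM), in 14 of 17 with only Os09g0328800 on (3.03 CPM) and in 2 of 50 with neither (0 CPM). These medians cover every line of a group, whether Os09g0339601 was on or not. The median was highest in lines with both in each year, although the single lines of these groups overlapped. Whether a near-identical copy on chromosome 8 shares reads with Os09g0339601 was not tested. The last gene of chromosome 9, Os09g0357250, was on in 18 lines in 2023 and 16 in 2022 and stood alone (phi with Os09g0339601 -0.04 in 2023 and 0.03 in 2022).

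**Figure D5:**
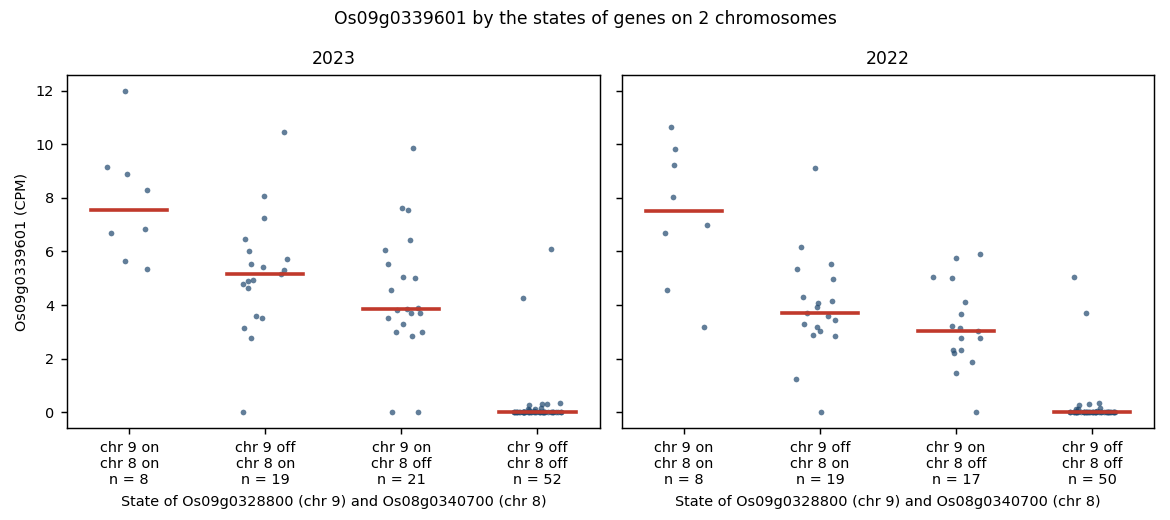
CPM of Os09g0339601 (vertical axis) in 2023 (left) and 2022 (right), each point a line, grouped by the states of Os09g0328800 on chromosome 9 and Os08g0340700 on chromosome 8. Red bars are medians. Lines with both on lie highest, at a median of 7.56 CPM in 2023 and 7.51 in 2022, and lines with neither have a median of 0 CPM, with 2 of them on in each year.

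The remaining 4 pairs called with other chromosomes were weaker. Os03g0247300 was on with Os09g0325300 (phi 0.33 in 2023 and 0.33 in 2022) and against Os09g0327575 (-0.36 and -0.33). Os12g0148500 was on with Os04g0197500 (0.38 and 0.36) and against Os04g0202500 (-0.38 and -0.37). No pair with an on/off gene of chromosome 11 was called among 1911 by Fisher's exact test with BH adjustment, and 61 of these (3.19%) had an unadjusted p under 0.05 in both years, beside the 2.38% of all different-chromosome pairs. The starts of rice chromosomes 11 and 12 carry a duplicated block of similar genes, whose reads are hard to assign. Whether such reads touch the genes at the start of chromosome 12 was not tested.

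On chromosome 10 a run of 3 genes spanned many identifiers. Os10g0163190, Os10g0315400 and Os10g0320001 were on in 23, 22 and 21 lines in 2023 and in 21, 22 and 19 lines in 2022. They were the only on/off genes of their span, in which 90 identifiers reached a mean of 1 CPM. In 2023 Os10g0163190 and Os10g0315400 were both on in 21 lines and both off in 76, and 2 lines expressed only Os10g0163190. Os10g0315400 and Os10g0320001 never differed, with both on in 21 lines and both off in 78 in 2023, and in 19 and 76 lines in 2022. Os10g0315400 had 12.02, 19.9 and 24.2 CPM in 2023 and 8.97, 21.6 and 26.7 CPM in 2022.

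Beyond this run lines were shared in part. Phi was 0.44 in 2023 and 0.47 in 2022 for Os10g0320001 with Os10g0451600, and 0.55 in 2023 and 0.57 in 2022 for Os10g0451600 with Os10g0485400. Os10g0485400 was nested in Os10g0491100. In 2023 both were on in 23 lines, Os10g0491100 alone in 32, Os10g0485400 alone in 0, and both were off in 43, and in 2022 these numbers were 24, 30, 0 and 42. At both ends of the chromosome the genes were not called with their neighbour. Os10g0142900 was off in no line that had Os10g0163190 on, but its phi was 0.27 in 2023 and 0.24 in 2022. For Os10g0491100 and Os10g0569800 phi was -0.26 in 2023 and -0.27 in 2022.

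The start of chromosome 12 held 5 rarely expressed genes in 1 run. Os12g0101000, Os12g0103500, Os12g0103580, Os12g0118400 and Os12g0132000 were on in 10, 11, 12, 12 and 15 lines in 2023 and in 11, 12, 13, 14 and 16 lines in 2022. Os12g0101000 had 2.06, 2.86 and 4.16 CPM in 2023 and 2.47, 3.68 and 5.86 CPM in 2022, and Os12g0103500 had 2.29, 4.67 and 7.18 CPM in 2023 and 2.35, 5.68 and 9.66 CPM in 2022. Os12g0103500 and Os12g0103580, with 1 identifier between them, never differed, with both on in 11 lines and both off in 88 in 2023. Toward the end of the run more lines parted, as 1 line had Os12g0118400 without Os12g0132000 and 4 lines had the reverse in 2023. Mixed states within the run were found in 7 lines in 2023 and in the same 7 lines in 2022.

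The next run was on in most lines. Os12g0141900, Os12g0142900, Os12g0145566 and Os12g0148500 were on in 62, 62, 61 and 61 lines in 2023 and in 62, 62, 61 and 61 lines in 2022. All 15 lines with Os12g0132000 on in 2023 also had Os12g0141900 on, as did all 16 in 2022. Of these lines, 2 had Os12g0145566 off and 3 had Os12g0148500 off in each year. Os12g0141900 had 2.62, 6.57 and 10.2 CPM in 2023 and 2.90, 7.03 and 10.1 CPM in 2022. Os12g0142900 had 4.33, 10.1 and 15.4 CPM in 2023 and 5.30, 11.5 and 18.4 CPM in 2022, and shared every called line with Os12g0141900. Os12g0148500 had 4.63, 9.03 and 18.6 CPM in 2023 and 2.86, 7.34 and 12.9 CPM in 2022. The 7 lines with mixed states were again the same in both years.

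Between Os12g0148500 and Os12g0159500 the pattern of lines turned over. In 2023, 34 lines expressed only Os12g0148500, 37 only Os12g0159500, 25 both and 2 neither, and in 2022 these numbers were 33, 36, 27 and 2. The phi coefficient was -0.53 in 2023 and -0.51 in 2022. No other pair of neighbours that was not joined had more lines that changed state between its genes, and in both years almost every line expressed at least 1 of the genes.

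The run of Os12g0159500, Os12g0166700, Os12g0180900 and Os12g0187500 was on in 62, 58, 61 and 63 lines in 2023 and in 64, 56, 66 and 67 lines in 2022. It held 11 of the 30 state changes between years, in 4 lines. Os12g0159500 had 2.52, 11.1 and 18.4 CPM in 2023 and 3.06, 12.8 and 27.0 CPM in 2022, and Os12g0180900 had 2.52, 8.58 and 12.7 CPM in 2023 and 3.28, 9.74 and 16.9 CPM in 2022. Os12g0166700 had 2.42, 4.04 and 7.78 CPM in 2023 and 2.07, 3.72 and 6.96 CPM in 2022, and Os12g0187500 had 2.12, 5.68 and 12.3 CPM in 2023 and 3.31, 6.28 and 9.56 CPM in 2022. Mixed states were found in 8 lines in 2023 and 7 in 2022, 7 of them in both.

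The longest run by number of genes was Os12g0218300, Os12g0219700, Os12g0221600, Os12g0228400, Os12g0228500 and Os12g0229100, 6 of 52 identifiers in that span. They were on in 38, 48, 44, 49, 49 and 45 lines in 2023 and in 42, 49, 44, 50, 50 and 40 lines in 2022. Os12g0228400 and Os12g0228500 were on in the same 49 lines and off in the same 51 lines in 2023. Os12g0228500 had 6.51, 17.7 and 27.0 CPM in 2023 and 12.1, 22.9 and 32.8 CPM in 2022, Os12g0228400 had 2.28, 9.39 and 17.5 CPM in 2023 and 3.47, 10.6 and 16.3 CPM in 2022, and Os12g0219700 had 3.41, 6.84 and 11.4 CPM in 2023 and 4.42, 11.3 and 17.6 CPM in 2022. Os12g0218300 and Os12g0221600 stayed at medians of 4.98 and 4.80 CPM in 2023 and of 4.81 and 4.02 CPM in 2022. The run was opposite in tendency to the one before it, with a phi of -0.40 in 2023 and -0.41 in 2022 between Os12g0187500 and Os12g0218300. Mixed states occurred in the same 3 lines in both years.

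The middle of chromosome 12 showed nested genes. Os12g0441700 and Os12g0450500 formed a run, both on in 72 lines and both off in 16 in 2023 and in 74 and 15 lines in 2022. Every one of the 49 lines with Os12g0458900 on in either year had Os12g0467300 on, while 28 lines in each year expressed only Os12g0467300. Os12g0492600, on in 50 lines in both years, shared its lines with Os12g0458900 rather than with the gene between them. In 2023, 48 lines expressed all 3 genes, 27 expressed only Os12g0467300, 20 expressed none and 3 lines held the other combinations, 1 line each. The last gene, Os12g0632401, on in 21 lines in 2023 and 22 in 2022, was not called with Os12g0492600 (phi 0.07 in 2023 and 0.09 in 2022).

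Lines with mixed states in a run were largely the same lines in both years. The numbers of mixed lines per run were 2, 2, 7, 7, 8, 3 and 2 in 2023 and 2, 1, 7, 7, 7, 3 and 2 in 2022, in locus order over chromosomes 9, 10 and 12. Of these, 2, 1, 7, 7, 7, 3 and 1 were mixed in both years.

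A small number of genes lay close to the limits of the rule. Just inside were Os12g0101000, with 10 lines on in 2023, and 5 genes with 10 lines between the limits in 1 of the years, Os09g0357250, Os10g0142900, Os12g0218300, Os12g0229100 and Os12g0450500. Just outside were 8 genes that passed in 1 year only. Os10g0432200 had 8 lines off in 2022, and Os10g0150800, Os12g0116200, Os12g0179700, Os12g0182900, Os12g0228800, Os12g0448400 and Os12g0466200 had 11 to 20 lines between the limits in their worse year. In 2023 the states of Os12g0116200, Os12g0179700 and Os12g0448400 were the same as those of their nearest gene of the set in all called lines. Os12g0228800 was opposite to Os12g0229100 in every called line.

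Among the lines on in both years, the level was correlated between years in part of the genes. Of 38 genes with at least 10 such lines, 4 had their lines parted by a gap of 0.5 or more on the log2 scale in at least 1 year. This limit was chosen after the values were seen. Gaps that set apart only the 1 or 2 lowest or highest lines were not counted. Over the other 34 genes, Pearson's r of log2 CPM between years was -0.27 to 0.77 with a median of 0.33. By the permutation test with BH adjustment over 222 on/off genes, 16 of these 34 were called by r, beside 50.0% of all 222, and 10 of 34 by Spearman's rho, beside 26.1%. Leaving out the 2 lines farthest from the 2022 median left 10 of the 34 called by r, and 8 were called by r, by rho, without those lines and after a trend over the column order of the tables was removed. The shares of the 222 genes were taken without a gap limit, unlike those of the 34. With the 4 parted genes counted in, which makes the sets alike, 20 of 38 were called by r and 12 by rho.

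In the 4 genes with a gap the lines fell into a lower and an upper group in at least 1 year. The 12 lines with Os12g0118400 on in both years fell into 4 lines at 22.6 to 27.8 CPM and 8 lines at 43.9 to 60.8 CPM in 2023, and into 4 lines at 24.9 to 36.5 CPM and 8 at 47.8 to 66.2 CPM in 2022, with the same 4 lines low in both years. Os12g0103580 likewise had 4 of 12 lines at 19.4 to 22.6 CPM in 2023 and 3 of 12 at 17.0 to 18.7 CPM in 2022, and these 3 were among the 4. In Os10g0315400, 2 of 22 lines had 12.02 to 13.3 CPM and the others 16.3 to 24.2 CPM in 2023, and 3 lines had 8.97 to 9.40 CPM and the others 15.6 to 26.7 CPM in 2022, with 2 lines low in both years. In Os10g0451600, 4 of 22 lines had 2.09 to 2.90 CPM and the others 3.75 to 8.47 CPM in 2023. In 2022 the widest step lay elsewhere, with 3 lines at 3.23 to 3.47 CPM and the others at 4.21 to 11.4 CPM. Of the low lines, 2 were low in both years. The gap reached 0.5 on the log2 scale only in 2022 for Os10g0315400 and only in 2023 for Os10g0451600. For these 4 genes no pooled r is given. Os12g0132000 had an r of 0.77 and a rho of 0.65 over 15 lines (permutation test, BH adjusted p 0.00304 and 0.0440), but an r of 0.51 without the 2 farthest lines, at which it was no longer called. In 2022 its lowest line stood apart at 11.0 CPM, with the others at 18.2 to 41.5 CPM. Among genes on in many lines, Os12g0180900 had an r of 0.50 and a rho of 0.50 over 61 lines (permutation test, BH adjusted p 0.000347 and 0.000555), and r was 0.41 without the 2 farthest lines.

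The lowest values were an r of -0.27 over 19 lines for Os10g0320001, -0.14 over 54 lines for Os10g0491100 and -0.03 over 21 lines for Os12g0632401, none of which passed the permutation test (BH adjusted p 0.359, 0.416 and 0.919). Their rho values were -0.27, -0.12 and 0.02 (BH adjusted p 0.413, 0.532 and 0.961), and their r without the 2 farthest lines 0.07, -0.17 and -0.15. In these genes the lines that were higher in 1 year were not the lines that were higher in the other beyond the permutation threshold.

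Few genes of the set changed in mean level between the years when lines were not paired, and more did when each line was set against itself. By edgeR's quasi-likelihood test on all 200 libraries, 0 of the 39 genes were higher in 2023 and 2 were lower, where 33.3% of all 21193 genes tested were higher and 35.0% lower. Os10g0142900 fell by 0.55 on the log2 scale in 2023 (SE 0.19, adjusted p 0.00697), with 2.13, 3.86 and 6.84 CPM over its on lines in 2023 and 2.15, 6.25 and 12.8 CPM in 2022. Os09g0327575 fell by 0.52 (SE 0.24, adjusted p 0.0448), with 2.01, 3.79 and 7.64 CPM over its on lines in 2023 and 2.30, 5.54 and 10.6 CPM in 2022. At an unadjusted p under 0.05 the counts were also 0 higher and 2 lower, and DESeq2 called 0 higher and 1 lower. In this fit the off lines and on lines of a gene both enter the spread.

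With each line as a replicate block, 6 of the 39 genes were higher in 2023 and 10 were lower, against 34.5% and 36.6% of all genes in that fit. The blocked changes of Os10g0142900 and Os09g0327575 were -0.56 (SE 0.07, adjusted p 1.11e-11) and -0.54 (SE 0.06, adjusted p 2.21e-12) on the log2 scale. The largest blocked rise among the genes called was that of Os12g0132000, 0.65 (SE 0.26, adjusted p 0.0283), against 0.79 (SE 0.47, adjusted p 0.123) without the block, and 15 of 15 lines on in both years were higher in 2023. Os12g0148500 rose by 0.47 with the block (SE 0.07, adjusted p 2.85e-08), and 50 of 61 lines on in both years were higher in 2023. Os10g0163190 rose by 0.45 (SE 0.13, adjusted p 0.00243), with 17 of 21 lines higher in 2023. Os12g0219700 had the largest blocked fall, -0.62 (SE 0.10, adjusted p 9.93e-08), with 10 of 48 lines higher in 2023.

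The blocked changes did not follow the runs. Within the run from Os12g0141900 to Os12g0148500, Os12g0145566 was lower in 2023 (-0.11, SE 0.04, edgeR adjusted p 0.0188 with the block) while Os12g0148500 was higher. On chromosome 9, Os09g0325300 was higher in 2023 (0.14, SE 0.05, adjusted p 0.0186 with the block) and Os09g0328066 lower (-0.26, SE 0.10, adjusted p 0.0218 with the block), although the called states of both genes differed in only 1 line in each year. In Os12g0180900 the blocked fall of 0.28 (SE 0.11, adjusted p 0.0187) includes the 4 lines that were off in 2023 and on in 2022.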

How the data were processed

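Leaf RNA of 100 JAM2 lines was sequenced in 2023 and 2022, 1 library per line and year. The authors deposited raw counts of unique exon reads per gene, 1 table per year with no other normalization, per the labels. Reads were placed on IRGSP-1.0 according to the submitters' processing notes. Which aligner and counter were used is not given in the sources used here. All 200 columns matched a labelled sample, 0 did not, and 0 pairs of libraries were identical. The line number pairs the libraries, since it names the same line in both years.

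CPM was computed from column totals (Python 3.11.15, pandas 2.3.3, numpy 2.4.6). States were tested with Fisher's exact test (scipy 1.17.1) and levels with 100000 permutations of log2 CPM (TMM factors, prior count 2). The difference between years was tested in R 4.3.3 by edgeR 4.0.16 (quasi-likelihood F test) on genes with at least 1 CPM in at least 10 libraries, with year as the sole term and the trended dispersion, and BH adjustment throughout at 0.05. Alternatives were the line number as a replicate block, DESeq2 1.42.0, other limits, scalings and filters, thinning, and the 30 lines with the deepest 2022 libraries or the other 70. Intervals and count floors cover counting error only, and p-values measure the spread between lines with 1 library each. In the fit with the line as a replicate block, they measure how the change between years varies over lines. Each test was tried on simulated data. The genes and lists were chosen with earlier results of these data known. Named genes are those of the 5 largest runs, those at the extremes of concordance, level, lines on, r and year change, and those at the limits of the rule. J2_209 and J2_216 and the pairs with other chromosomes were named after their values were seen. Figures were drawn with matplotlib 3.10.9. No sequence was used here.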

Additional observations from a re-analysis of the deposited data

How the results depend on the processing

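All 39 genes were called concordant between years under 6 of the 7 alternative settings of the states, and 35 of 37 tested under limits of 0.5 and 5 CPM. The count of calls off in 2023 and on in 2022 was 30 in the main setting, 13 at limits of 0.5 and 5 CPM with 1 the reverse, 46 at a single limit of 1 CPM with 7 the reverse, and 7 in the other 70 lines. The number of genes meeting the rule was 26 to 48 under other limits. The runs numbered 7 to 9 under every setting tried, and 18 of 36 neighbouring pairs were called in the 30 lines sequenced deepest in 2022. The 20 genes called by the correlation of levels became 13 without the 2 farthest lines, 7 in the 30 deepest lines and 9 in the other 70, where fewer lines enter. Of 39 genes, 2 changed between years in the main fit; the replicate block by line, which pairs each line with itself, raised this to 16 and changed no sign of those 2. DESeq2 called 1, no filter on low counts called 1, the other 70 lines gave 1 and the 30 deepest gave 0, with 0 at an unadjusted p under 0.05 by edgeR. Os09g0327575 was the gene lost under these settings (adjusted p 0.0622 to 0.390), and Os10g0142900 was lost in the 30 deepest lines (adjusted p 0.312). Total counts in place of TMM factors moved the median log2 change of all genes to -0.12 and called 3 genes of the set, all lower in 2023. The causes of these differences were not tested. Depth limits calls near 0.2 CPM in the shallowest libraries, where 1 count exceeds that level.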
